A study of Homo sapiens with 8 samples.

Results

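The addition of lapatinib to JQ1 was examined in SKBR-3, a human breast cancer line with amplified HER2 (the gene ERBB2). The comparison sets the library of cells given both drugs against the library of cells given JQ1 alone, 2 of the 8 libraries of the series, and asks what inhibition of the HER2 kinase still does to the transcripts of a cell whose BET proteins are already inhibited. Lapatinib, an inhibitor of the HER2 and EGFR kinases, and JQ1, an inhibitor of the BET bromodomains, were each given at 300 nM for 48 h. Of 20531 genes in the table, 9823 reached a value of 100 in either of these libraries and are described here. Of these, 8909 reached 100 in both libraries, 563 with JQ1 only and 351 with both drugs only.

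Poly(A) RNA was sequenced from 4 treatments of SKBR-3 (the vehicle DMSO, lapatinib, JQ1, both drugs) and the same 4 of BT474m1, another line with amplified HER2 derived from BT474. Each treatment was 1 culture and 1 library, so no spread between cultures is known, no test across replicates could be run and no p-value is given. Values are RSEM estimates of reads per gene, scaled so that 1000 is the upper quartile of genes above 0 in each library. They are not divided by gene length. The reads on genes were 27143871 with JQ1 and 24418859 with both drugs, against 22082527 with DMSO and 21420106 with lapatinib, and 1 read was worth 0.644 to 0.766 units in these 4 libraries. The highest 20 genes took 14% of the summed values with JQ1 and 11.1% with both drugs. The luminal identity of the cells was read from 9 marker genes, of which 8 stood at 100 or more in all 4 libraries. The exception was CDH1 (E-cadherin), at 15.1 or lower. Over the 4 libraries the summed markers of other cell types ranged from 55.7 to 109 (basal, 6 genes), 24.1 to 125 (fibroblast, 6), 25.1 to 149 (endothelial, 5) and 195 to 419.6 (leukocyte, 6, nearly all from CD68, which is also lysosomal). COL3A1, a fibroblast collagen, and PECAM1, of endothelium, were at 0 in all 4.

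HER2 signals mainly through its partner HER3 to the kinase AKT, and through RAS to the MAP kinase ERK. Active AKT keeps FOXO transcription factors out of the nucleus and promotes growth and glucose use, while ERK and AKT together sustain cyclin D, which releases the E2F factors that switch on replication genes. The BET proteins bind acetylated histones at enhancers and promoters and help RNA polymerase to elongate, so JQ1 acts on transcription itself rather than on the receptor.

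Throughout, a difference is that of log2(value + 1), both drugs minus JQ1. A gene is called raised or lowered where the difference is at least 1, that is 2-fold. The interval in brackets after a difference is the exact 95% interval from the recovered reads. It covers counting error only, as reads copied by PCR were not tagged by molecule, and takes no account of differences between cultures. Because the values are relative to each library's own upper quartile and the samples are bulk, fewer cells of a kind cannot be told apart from less RNA per cell.

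Lapatinib added to JQ1 raised 693 of the 9823 genes (7.05%) and lowered 1044 (10.6%). Of the 693, 517 stood at 100 or more in both libraries, and of the 1044, 635 did. The other 409 lowered genes were kept only because of their value with JQ1. The falls were deep: 353 genes were lowered at least 4-fold and 144 at least 16-fold, whereas 102 were raised 4-fold and 4 were raised 16-fold. Among these 4 is ZNHIT2, whose listed 0 with JQ1 may be a failed estimate. NUPR1 and TCP11L2, also among the 4, had only 19 and 18 reads with JQ1. The median difference over all genes was -0.01. By level, 13.7% of the 1980 genes whose higher value was between 100 and 300 were lowered, 12% of those from 300 to 1000, 8.26% from 1000 to 3000, 6.75% from 3000 to 10000 and 11.3% of the 256 genes at 10000 or more. The shares raised in these ranges were 9.14%, 6.09%, 6.48%, 7.5% and 8.59%, so that from 3000 to 10000 more genes were raised than lowered.

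Over the same genes, lapatinib without JQ1 (lapatinib minus DMSO, a pair that shares no library with the first) raised 717 (7.3%) and lowered 781 (7.95%). The pairs moved largely the same genes. Of the genes lowered with JQ1 present, 657 were also lowered without it, which is 62.9% of the first set and 84.1% of the other. Of those raised, 441 were raised in both, 63.6% and 61.5%. Across the 9823 genes the differences had a Pearson r of 0.89 and a Spearman rho of 0.86, which describe genes of 4 libraries made from 1 line and not replicates. The falls were larger in the presence of JQ1. The median of the 657 genes was -2.04 with JQ1 against -1.77 without, and 505 of them (76.9%) fell further with it. Because the filter uses the JQ1 library and not DMSO, the shared falls were also taken over genes at 100 or more with DMSO or lapatinib, where 75.6% of 700 fell further with JQ1, and over genes at 100 or more in both the JQ1 and the combined library, where 67.3% of 343 did and the medians were -1.56 and -1.42. Among the 441 raised in both, the medians were 1.48 and 1.39, and 265 (60.1%) rose further with JQ1. The SD of the differences over all genes was 1.06 with JQ1 and 0.85 without. With 1 library a group no test of these differences in size could be run within SKBR-3, and none was run across the lines.

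**Figure D1:**
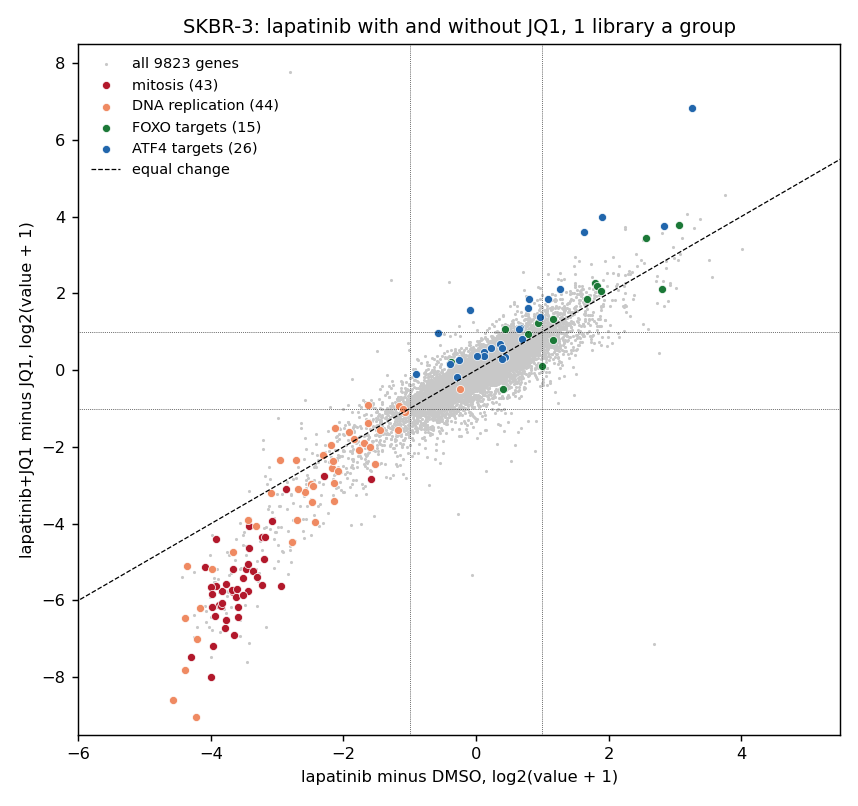
Each point is 1 gene of SKBR-3, with lapatinib minus DMSO on the x axis and lapatinib+JQ1 minus JQ1 on the y axis, both as differences of log2(value + 1); colours mark 4 gene lists, dotted lines 2-fold and the dashed line an equal change. The 43 mitosis genes lie below the dashed line, and 24 of the 26 ATF4 targets lie above it.

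Other genes passed 2-fold in 1 setting only, and most had the same sign in both. That the median is larger in the setting that passed follows from this choice. The 250 genes raised only with JQ1 present had a median of 1.15, against 0.80 without JQ1, and 98.4% had a difference above 0 in both. The 386 lowered only with JQ1 had medians of -1.19 and -0.66, and 91.7% shared the sign. Conversely, 275 genes were raised only without JQ1, with medians of 0.74 with it and 1.17 without, and 122 were lowered only without JQ1, with medians of -0.83 and -1.15. Past 2-fold in opposite directions were 3 genes, EIF3C, ZNHIT2 and OCLNP1, of which EIF3C and OCLNP1 have near-identical copies in the genome.

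Gene lists, chosen with earlier results of these data known and so not independent evidence, were used to describe the change. A gene can be in several lists. Of the 37 lists, mitosis, homologous recombination, DNA replication and the E2F and pocket proteins had the lowest medians, and FOXO targets the highest among lists with 7 or more genes kept. The medians and counts below are to be read against 7.05% of all genes raised and 10.6% lowered.

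**Figure D2:**
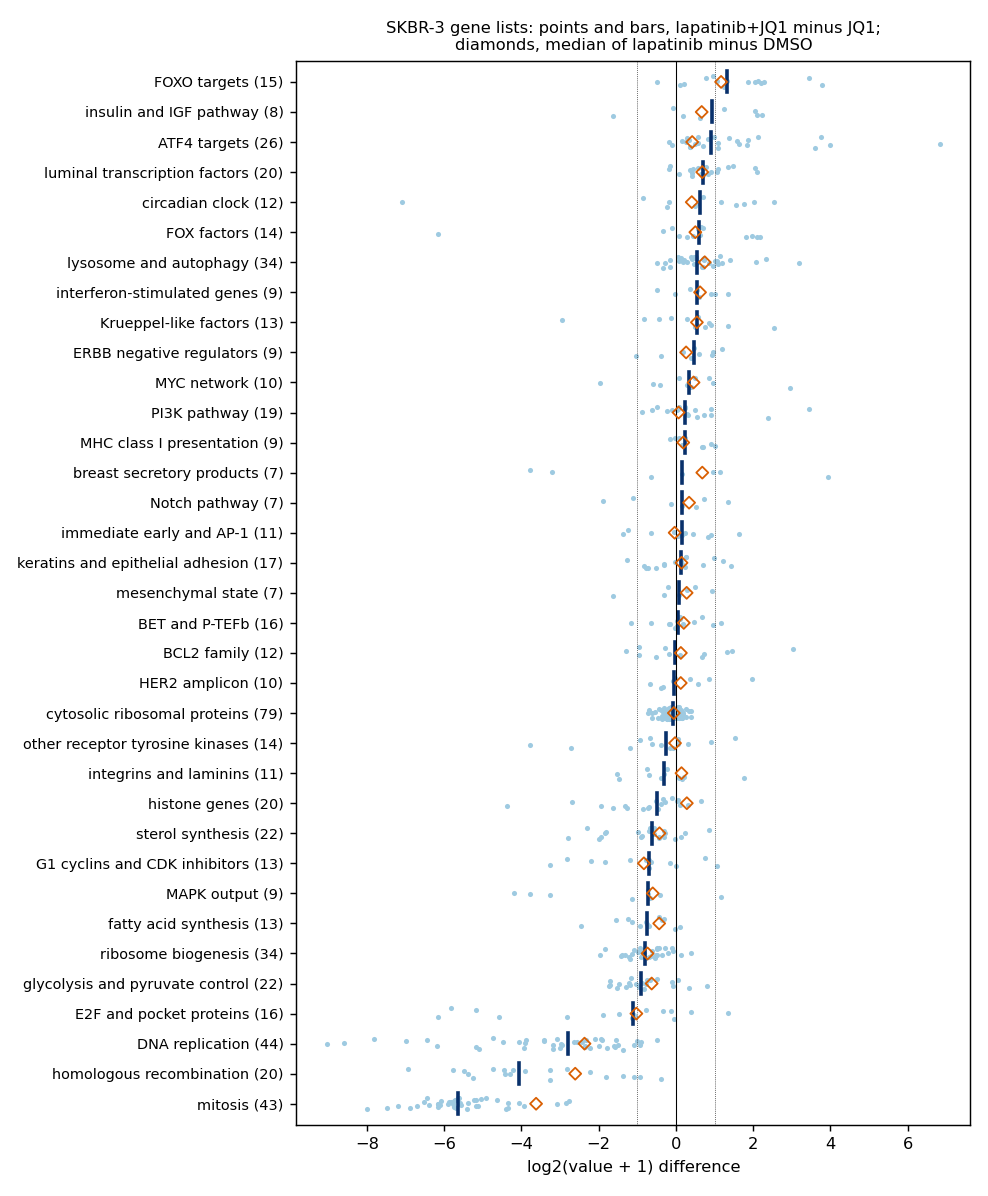
Each row is a gene list with the number of members at 100 or more in brackets; points are genes and bars medians of the lapatinib+JQ1 minus JQ1 difference in log2(value + 1), and diamonds are the list's median for lapatinib minus DMSO. The mitosis list has the lowest median (-5.65) and the FOXO targets the highest (1.33) of the lists drawn, which are those with 7 or more genes kept.

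Genes of mitosis fell most. All 43 of the 45 listed members that were kept were lowered, with differences from -8.00 to -2.76 and a median of -5.65. Without JQ1 the same 43 were lowered, with a median of -3.62, and all 43 had the larger fall with JQ1 present. The median value of the list was 1900 with DMSO and 136 with lapatinib, against 1252 with JQ1 and 19.9 with both drugs, so that the library with both drugs stood lowest and JQ1 alone lay between DMSO and lapatinib, nearer to DMSO. MKI67, which encodes the proliferation marker Ki-67, went from 6595 with JQ1 to 44 with both drugs, against 8462 with DMSO and 538 with lapatinib, a difference of -7.19 (-7.6 to -6.87). PLK1, a kinase that drives entry into and passage through mitosis, went from 1065 with JQ1 to 17.9 with both drugs, against 2170.4 with DMSO and 136 with lapatinib. For CCNB2, a B-type cyclin, the values were 1067 with DMSO and 92.6 with lapatinib, against 658 with JQ1 and 14.4 with both drugs. FOXM1, the transcription factor that switches on genes of G2 and mitosis, went from 1348 with JQ1 to 17.9 with both drugs, a difference of -6.16 (-6.85 to -5.68) against -3.59 without JQ1. MYBL2, which acts with FOXM1 on the same promoters, went from 3476 with JQ1 to 18.6 with both drugs. The kinetochore gene SPC25 had 396 reads with JQ1 and 0 with both drugs, and the counting interval of its difference ends at -6.65. NDC80, its partner at the kinetochore, had 435 reads and 2, a difference of -6.89 (-10.72 to -5.81). The smallest falls of the list were in INCENP (-2.76, -2.97 to -2.57) and the condensin genes SMC2 (-2.84, -3.03 to -2.66) and SMC4 (-3.09, -3.17 to -3.01), and these too were past 2-fold.

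Promoters of mitosis genes often carry a cell cycle homology region, or CHR, with the letters TTTGAA shortly before the start, and CCAAT boxes upstream of it. The DREAM complex represses genes through the CHR in resting cells, and MYBL2 and FOXM1 activate them through it in dividing cells. Promoters of 4 such genes are shown because these genes were lowered over 32-fold, and were chosen after the values were seen. The capitals mark TTTGAA and CCAAT on either strand, in the 110 bases before the RefSeq start on GRCh38.p14.
PLK1: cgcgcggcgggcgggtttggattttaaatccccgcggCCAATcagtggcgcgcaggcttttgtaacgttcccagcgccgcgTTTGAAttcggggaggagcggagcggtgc
CCNB2: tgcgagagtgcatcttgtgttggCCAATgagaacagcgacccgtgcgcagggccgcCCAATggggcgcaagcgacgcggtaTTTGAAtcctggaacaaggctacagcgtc
HMMR: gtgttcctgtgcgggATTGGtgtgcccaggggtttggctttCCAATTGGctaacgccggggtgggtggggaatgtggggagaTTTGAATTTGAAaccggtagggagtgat
MKI67: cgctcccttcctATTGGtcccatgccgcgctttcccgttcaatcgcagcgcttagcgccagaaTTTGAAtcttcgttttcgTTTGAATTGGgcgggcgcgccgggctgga
The stretches are chr16:23678779-23678888 on the + strand, chr15:59105036-59105145 on the + strand, chr5:163460522-163460631 on the + strand and chr10:128126424-128126533 on the - strand. In PLK1 and CCNB2 the CHR begins at -29, counted with -1 as the last base before the start, and in HMMR, which encodes a receptor for hyaluronan that also binds the mitotic spindle, at -28 and -22. In MKI67 it is found at -47 and -29. HMMR itself went from 534 with JQ1 to 8.94 with both drugs, a difference of -5.75 (-6.82 to -5.12).

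Searched on both strands in windows of 250 bases before to 50 after the start, TTTGAA was present in 26 of the 38 mitosis genes with a promoter in the RefSeq table (68.4%). It was present in 9.31% of all 8059 kept genes with a promoter, in 18.1% of those lowered, in 34.3% of those lowered 4-fold, in 8.26% of those raised and in 15.4% of all 27305 promoters of the table. CCAAT was found in 71.1% of the mitosis promoters, 46.2% of the lowered, 36.6% of the raised and 38% of all kept genes. The searches overlap, since a window can hold both. A match is a run of letters and not a measured binding site.

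**Figure D3:**
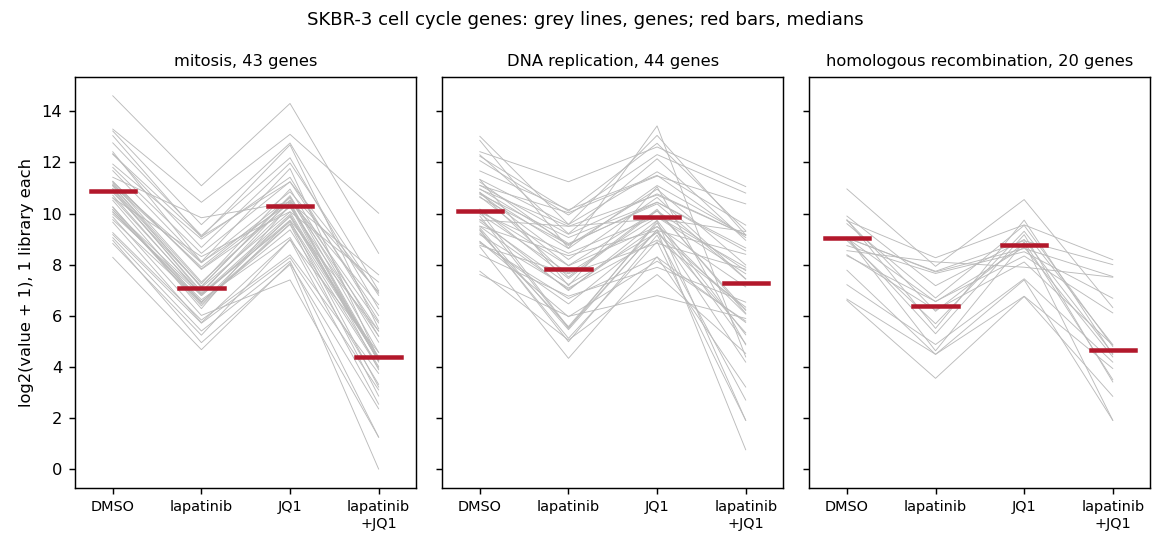
Grey lines join the log2(value + 1) of each gene in the 4 SKBR-3 libraries for the mitosis, DNA replication and homologous recombination lists, and red bars are the medians. In each list the bar stands lowest with lapatinib+JQ1, and the JQ1 bar lies nearer to DMSO than to lapatinib.

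DNA replication genes were lowered almost as a whole. Of 44 kept, 41 were lowered and 0 raised, with a median of -2.79 against -2.37 without JQ1, and 33 of the 44 fell further with JQ1. RRM2, the small subunit of ribonucleotide reductase, which makes the deoxynucleotides for DNA, had the lowest difference of all genes on the log2(value + 1) scale, though the intervals of several genes with few reads left, UHRF1, SPC25 and NDC80 among them, reach below it. Its value went from 11020 with JQ1 to 19.9 with both drugs, against 7440.2 with DMSO and 397 with lapatinib, a difference of -9.04 (-9.69 to -8.59). For UHRF1, which is needed for DNA methylation to be copied onto new strands, 1016 reads with JQ1 stood against 1 with both drugs, a difference of -8.6 (-15.2 to -7.41). MCM10, which helps to start replication forks, went from 839 with JQ1 to 2.75 with both drugs, and CDC45, part of the replicative helicase, from 477 with JQ1 to 2.75 with both drugs. TYMS, which makes thymidylate, went from 2116 with JQ1 to 28.1 with both drugs. Falls were much smaller in the helicase subunit MCM4 (-1.55, -1.61 to -1.49) and in the sliding clamp PCNA, which went from 5064 with JQ1 to 1783 with both drugs and stood at 983 with lapatinib alone. The clamp was thus higher with both drugs than with lapatinib, unlike RRM2 and MCM10. Under 2-fold were RPA2 (-0.93, -1.09 to -0.78), TIPIN (-0.89, -1.3 to -0.52) and CHAF1B (-0.49, -0.62 to -0.37).

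Homologous recombination genes, which repair breaks and stalled forks, followed. Of 20 kept, 18 were lowered and 0 raised, with a median of -4.07 against -2.61 without JQ1. RAD51AP1, which helps the strand exchange step of repair, went from 459 with JQ1 to 2.75 with both drugs, a difference of -6.94 (-9.26 to -6.02). FANCD2, a Fanconi anaemia protein that marks crosslinked DNA, went from 506 with JQ1 to 22 with both drugs. BARD1 (-0.94, -1.12 to -0.76) and PALB2 (-0.39, -0.63 to -0.16) were the members under 2-fold.

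Among the E2F factors and pocket proteins that control these genes, 10 of 16 were lowered and 1 was raised, with a median of -1.11. The activators E2F1, which went from 736 with JQ1 to 29.6 with both drugs, and E2F2, from 134 with JQ1 to 1.38 with both drugs, were lowered, as were the late repressors E2F7 (-6.16, -7.5 to -5.44) and E2F8 (-5.17, -6.44 to -4.47). E2F4, which acts in resting cells, had a far smaller fall (-1.07, -1.26 to -0.88). RB1, the retinoblastoma protein, had values of 2070.2 with DMSO and 2714 with lapatinib, against 2342 with JQ1 and 3083 with both drugs, and its relative RBL2 (p130), a part of the DREAM complex, was the member raised, from 735 with JQ1 to 1875 with both drugs, a difference of 1.35 (1.25 to 1.45). E2F1 and E2F2 hold an E2F motif in their own promoters. The 60 bases before their starts are shown because both genes hold the motif and were lowered over 16-fold, with TTTGGCGC in capitals. These genes were chosen after the values were seen. RRM2, UHRF1, MCM10 and CDC45, which fell further, held no E2F motif in the window searched.
E2F1: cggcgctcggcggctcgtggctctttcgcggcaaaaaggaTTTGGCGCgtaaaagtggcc
E2F2: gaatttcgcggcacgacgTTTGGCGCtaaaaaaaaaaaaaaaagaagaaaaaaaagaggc
They are chr20:33686386-33686445 and chr1:23531234-23531293 on GRCh38.p14, both on the - strand, with the motif starting at -20 in E2F1 and -42 in E2F2. TTTGGCGC or TTTCGCGC, on either strand, was found in 10 of 38 DNA replication promoters (26.3%), 1 of 38 mitosis promoters (2.63%), 6.15% of lowered, 1.8% of raised and 2.35% of all kept genes. Conversely TTTGAA was in 5.26% of the replication promoters.

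Upstream of E2F, 5 of the 13 kept G1 cyclins and CDK inhibitors were lowered and 1 was raised. CCND1, which encodes cyclin D1, went from 8959.6 with JQ1 to 939.6 with both drugs, against 4989 with DMSO and 1425 with lapatinib, a difference of -3.25 (-3.33 to -3.17), so its JQ1 value was the highest of the 4 and its value with both drugs the lowest. CCNE2 (-2.83, -3.3 to -2.45), CCNE1 (-1.84, -2.11 to -1.6) and CCND3 (-1.2, -1.32 to -1.08) were lowered, as was the kinase CDK2 (-2.21, -2.44 to -2.01). CDK6 stood at 1032 in both libraries, a difference of 0.00 (-0.1 to 0.1). CDKN1B, the CDK inhibitor p27 and a FOXO target, was raised from 857 with JQ1 to 1793 with both drugs (1.06, 0.97 to 1.16), while the inhibitor p21 gene CDKN1A had values of 155 with DMSO and 214 with lapatinib, against 604 with JQ1 and 371 with both drugs, a difference of -0.7 (-0.86 to -0.55).

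Transcripts that report ERK activity were lower. Of the 18 members of the MAPK output list 9 were kept, of which 4 were lowered and 1 raised, with a median of -0.71. Those not kept include DUSP6, ETV4, ETV5, FOSL1 and SPRY2. The lowered members were SPRY4, EPHA2, DUSP5 and CCND1. CCND1 is also counted among the G1 cyclins, and EPHA2 among the other receptor tyrosine kinases. SPRY4, a feedback inhibitor of the MAPK pathway, went from 534 with JQ1 to 28.2 with both drugs, against 126 with DMSO and 16.8 with lapatinib (-4.2, -4.73 to -3.79). EPHA2, a receptor tyrosine kinase, went from 1008 with JQ1 to 72.9 with both drugs (-3.77, -4.09 to -3.51), and the ERK phosphatase DUSP5 from 389.8 with JQ1 to 175 with both drugs (-1.15, -1.37 to -0.94). SPRY1, a relative of SPRY4, was raised (1.17, 0.93 to 1.44). For SPRY4, EPHA2 and DUSP5 the library with JQ1 stood above DMSO, and so each fell from a higher level than without JQ1. DUSP4 had values of 1105 with DMSO and 1301 with lapatinib, against 2210.1 with JQ1 and 1347 with both drugs, a difference of -0.71 (-0.8 to -0.63) with JQ1 and 0.24 without. Among immediate early genes, EGR1 was lowered, from 657 with JQ1 to 279 with both drugs, and so was NR4A1 (-1.36, -1.52 to -1.21), whereas ATF3 was raised (1.62, 1.49 to 1.76). JUN had 1543 with JQ1 and 1482 with both drugs.

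Genes of growth moved less. In ribosome biogenesis 9 of 34 were lowered and 0 raised, with a median of -0.80 against -0.74 without JQ1, and 32 of the 34 differences were below 0. TCOF1, which supports transcription of ribosomal RNA, went from 2793 with JQ1 to 719 with both drugs (-1.96, -2.06 to -1.86), and the RNA polymerase I subunit POLR1A from 2215 with JQ1 to 828 with both drugs (-1.42, -1.52 to -1.33). The nucleolar protein NPM1 had a difference of -0.07 (-0.1 to -0.03). None of the 79 cytosolic ribosomal protein genes reached 2-fold in either direction, with differences from -0.73 (RPSA) to 0.40 (RPS21) and a median of -0.07; several have near-identical pseudogenes, so single values are uncertain. Under equal summed values, which shift every difference by 0.06, this median moves close to 0. MYC itself was not past 2-fold, with 2143 with DMSO and 1349.9 with lapatinib, against 1879 with JQ1 and 1416 with both drugs and a difference of -0.41 (-0.49 to -0.33). Of the MYC network, MXD3 was lowered (-1.96, -2.28 to -1.67) and MXI1, which competes with MYC for MAX, was raised from 107 with JQ1 to 829.6 with both drugs (2.94, 2.72 to 3.2, against 1.49 without JQ1).

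Glycolysis genes were lower with both drugs than with JQ1. Of 22 kept, 10 were lowered and 0 raised, with a median of -0.92 against -0.63 without JQ1, where 4 were lowered, and 21 of the 22 had a lower difference with JQ1 present. LDHA, which turns pyruvate into lactate, went from 47357 with JQ1 to 14244 with both drugs, against 30835 with DMSO and 15309 with lapatinib (-1.73, -1.76 to -1.71). ALDOA, the muscle-type aldolase, went from 76522 with JQ1 to 23560.4 with both drugs, against 34093 with DMSO and 21079.6 with lapatinib (-1.7, -1.72 to -1.68). GAPDH went from 235992 with JQ1 to 82243 with both drugs, against 108013 with DMSO and 68626 with lapatinib (-1.52, -1.53 to -1.51), and the pyruvate kinase PKM from 35377 with JQ1 to 12706 with both drugs (-1.48, -1.5 to -1.45). In LDHA, ALDOA, GAPDH and PKM the JQ1 library stood highest of the 4, and the lapatinib and combined libraries lay close to each other. SLC16A3, a lactate exporter, had 1804 with DMSO and 1668 with lapatinib, against 6153 with JQ1 and 2499 with both drugs, so the fall of -1.3 (-1.36 to -1.24) began from a level seen with JQ1 only. The glucose transporter gene SLC2A1 (0.33, 0.3 to 0.36) and hexokinase HK2 (0.82, 0.76 to 0.87) had differences above 0 but under 2-fold. A high JQ1 value and a larger fall rest on the same library, and the part of that library in these falls was not tested.

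Genes of lipid synthesis were also lower. Of 13 kept fatty acid genes, 4 were lowered and 0 raised, with a median of -0.74. FASN, the fatty acid synthase, had 96318 with DMSO and 95035 with lapatinib, against 297865 with JQ1 and 126490 with both drugs. It differed by -1.24 (-1.24 to -1.23) with JQ1 and by -0.02 without it, and its JQ1 value stood above those of the other 3 libraries. SCD, which makes monounsaturated fats, went from 44773 with JQ1 to 15272 with both drugs, against 15512 with DMSO and 9920.4 with lapatinib (-1.55, -1.57 to -1.53), and the elongase ELOVL6 from 1774 with JQ1 to 323 with both drugs (-2.45, -2.6 to -2.31). The malic enzyme ME1, which supplies NADPH, was lowered by as much in both settings (-1.13, -1.25 to -1.01, with JQ1 and -1.13 without). SREBF1, the transcription factor of this pathway, had 8108 with DMSO and 7559.7 with lapatinib, against 30582 with JQ1 and 17956 with both drugs, a difference of -0.77 (-0.79 to -0.75). In the sterol pathway 6 of 22 were lowered and 0 raised, among them DHCR7 (-1.98, -2.08 to -1.89), which carries out a last step to cholesterol, and INSIG1 (-1.84, -1.98 to -1.71), the brake on the pathway.

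**Figure D4:**
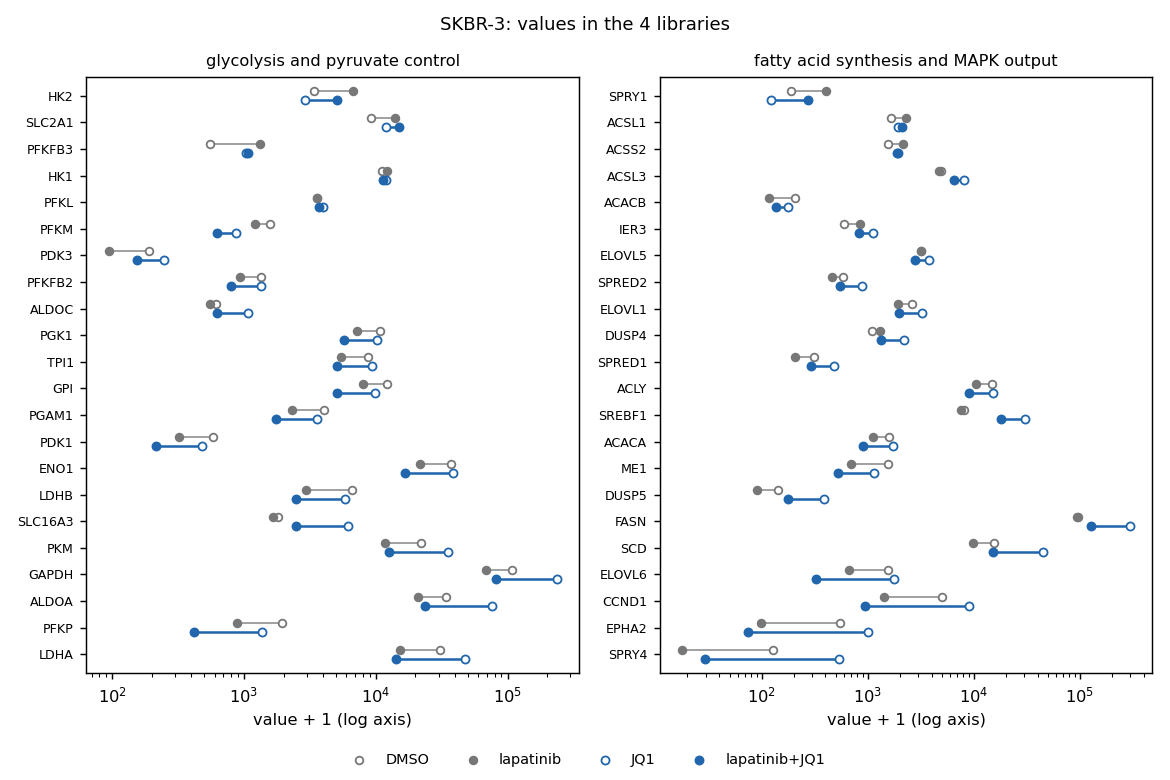
Values + 1 on a log axis in the 4 SKBR-3 libraries for the glycolysis list (left) and the fatty acid and MAPK output lists (right); grey lines join DMSO (open) to lapatinib (filled) and blue lines join JQ1 (open) to lapatinib+JQ1 (filled). For FASN the grey points nearly coincide, while the blue points stand at 297865 and 126490.

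In the other direction, targets of ATF4 were raised. ATF4 is the transcription factor of the integrated stress response, which cells start when amino acids run short or the endoplasmic reticulum is stressed. Of 26 kept, 12 were raised and 0 lowered, a median of 0.90 against 0.42 without JQ1, where 6 were raised. In 24 of the 26 the difference was higher with JQ1 than without. NUPR1, a stress-induced nuclear protein, went from 12.2 with JQ1 to 1506 with both drugs, against 257 with DMSO and 2477 with lapatinib. Its difference of 6.83 (6.3 to 7.68) starts from a JQ1 value of 19 reads, and its value with both drugs stayed below that with lapatinib alone. DDIT3, which encodes the stress factor CHOP, went from 68.9 with JQ1 to 1113 with both drugs, against 72.3 with DMSO and 273 with lapatinib (3.99, 3.73 to 4.31). CHAC1, which breaks down glutathione, went from 65.1 with JQ1 to 893 with both drugs, against 45.1 with DMSO and 329 with lapatinib (3.76, 3.49 to 4.08). SLC7A11, the cystine importer, went from 231 with JQ1 to 2813 with both drugs, against 287 with DMSO and 888 with lapatinib (3.6, 3.45 to 3.77). For these 3 genes JQ1 alone lay near DMSO, and both drugs gave the highest of the 4 values. ASNS, asparagine synthetase, went from 2699 with JQ1 to 9682 with both drugs (1.84, 1.79 to 1.89), and the tRNA synthetase AARS1 from 2061 with JQ1 to 7519.9 with both drugs (1.87, 1.81 to 1.92). ATF4 itself was raised from 3184 with JQ1 to 6827 with both drugs (1.1, 1.05 to 1.15), and its mRNA level is only part of its control, which is mainly translational.

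The list holds enzymes of serine synthesis. PHGDH, the first of them, was raised with JQ1 present and not without, with 615 with DMSO and 578 with lapatinib, against 294 with JQ1 and 879 with both drugs, a difference of 1.57 (1.42 to 1.74) against -0.09 without JQ1. PSAT1 had 1457 with DMSO and 981 with lapatinib, against 1153 with JQ1 and 2276 with both drugs, a difference of 0.98 (0.9 to 1.07), just under 2-fold, against -0.57. PHGDH and PSAT1 stood lower with JQ1 than with DMSO. PSPH, the last enzyme of the pathway, differed by 0.28 with JQ1 and 0.40 without. At the other end, the amino acid transporters SLC7A5 (-0.17, -0.2 to -0.15) and SLC3A2 (0.26, 0.22 to 0.29) and the factor ATF5 (-0.1, -0.21 to 0.02) were not called. In BT474m1 the same list had a median of -0.24, with 1 of the 26 raised and 1 lowered.

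**Figure D5:**
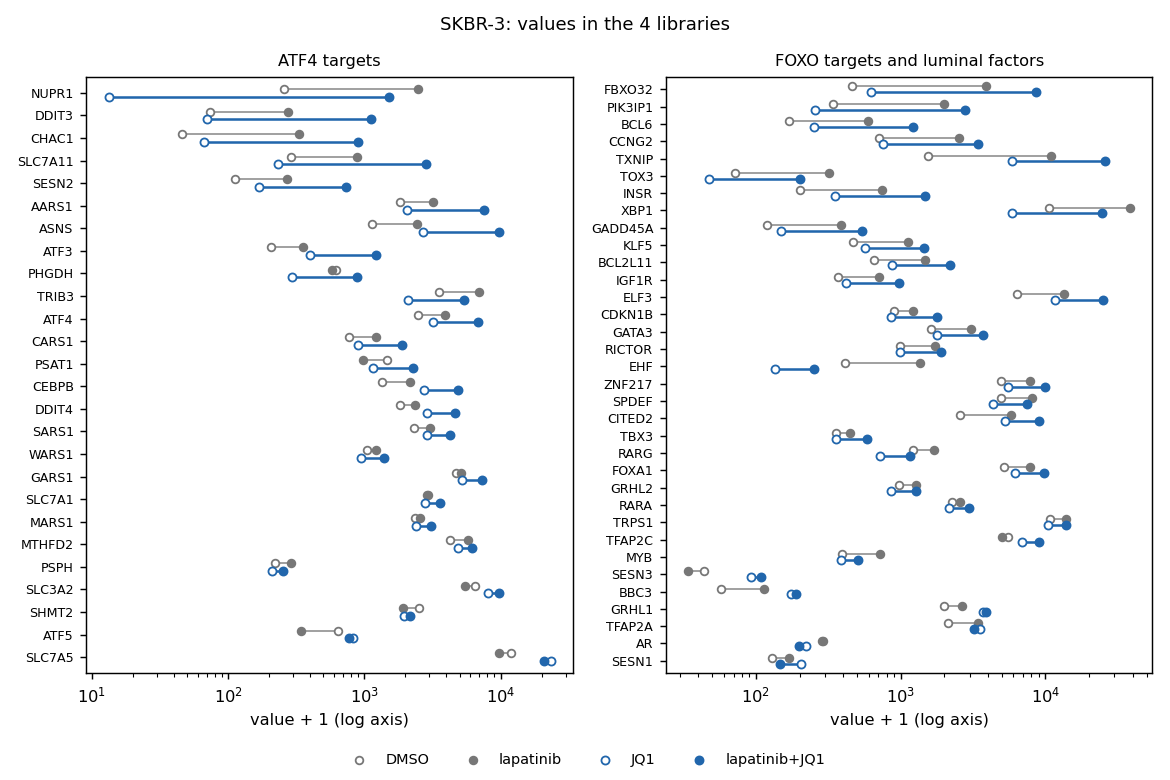
Values + 1 on a log axis in the 4 SKBR-3 libraries for ATF4 targets (left) and for FOXO targets and luminal transcription factors (right, 1 member not drawn); grey lines join DMSO (open) to lapatinib (filled) and blue lines join JQ1 (open) to lapatinib+JQ1 (filled). DDIT3, SLC7A11 and ASNS reach their highest value with both drugs.

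FOXO targets were raised with and without JQ1. Of 15 kept, 10 were raised and 0 lowered, a median of 1.33 against 1.17, and 8 were raised in both. FBXO32 (atrogin-1), a ubiquitin ligase, went from 621 with JQ1 to 8609 with both drugs, against 462 with DMSO and 3874 with lapatinib (3.79, 3.7 to 3.89). PIK3IP1, an inhibitor of PI3-kinase, went from 255 with JQ1 to 2760.4 with both drugs, against 338 with DMSO and 2007 with lapatinib (3.43, 3.29 to 3.59). The insulin receptor gene INSR went from 351 with JQ1 to 1462 with both drugs (2.05, 1.92 to 2.2) and the BH3-only gene BCL2L11 (BIM) from 874 with JQ1 to 2194 with both drugs (1.33, 1.24 to 1.42). TXNIP, which restrains glucose uptake, had 1555 with DMSO and 10881 with lapatinib, against 5896 with JQ1 and 25780.2 with both drugs, so it rose in both settings to its highest value with both drugs (2.13, 2.1 to 2.16). FOXO3 had a difference of 2.18 (2.1 to 2.25). Its near-identical copy FOXO3B shares reads with it and differed by 1.98, and their sum by 2.11. SESN1 (-0.48, -0.74 to -0.23), a FOXO and p53 target, was the member below 0.

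FOX factors bind the core GTAAACA or GTCAACA. These letters, on either strand, were in 7.54% of promoters of raised genes (42 of 557), 11.5% of those raised 4-fold (9 of 78), 2.05% of those lowered and 3.34% of all kept genes, and in 5.67% of all 27305 promoters of the table. The motif does not separate FOXO from other FOX factors. Stretches of 60 bases are shown for 3 raised genes whose promoters hold it, chosen after the values were seen, with the motif in capitals.
TCP11L2: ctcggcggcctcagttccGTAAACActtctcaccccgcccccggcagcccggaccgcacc
HBP1: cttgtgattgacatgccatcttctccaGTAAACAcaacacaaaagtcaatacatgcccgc
TXNIP: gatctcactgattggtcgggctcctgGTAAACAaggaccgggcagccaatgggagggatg
They are chr12:106302483-106302542 (+ strand), chr7:107168803-107168862 (+ strand) and chr1:145996670-145996729 (- strand) on GRCh38.p14, and the motif starts at -232, -173 and -124. TCP11L2 went from 11.6 with JQ1 to 299 with both drugs, against 17.2 with DMSO and 246 with lapatinib (4.57, 4.01 to 5.45). HBP1, a repressor of cell cycle genes, went from 1047 with JQ1 to 4615 with both drugs, against 935 with DMSO and 3336 with lapatinib (2.14, 2.06 to 2.22). Both follow lapatinib in each setting, with JQ1 close to DMSO. The E-box CACGTG, bound by MYC and by MITF family factors, was found in 10.4% of raised, 11.8% of lowered and 11% of all kept genes, and in 8 of 24 promoters of the lysosome and autophagy list (33.3%, exact 95% interval 15.6% to 55.3%).

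Feedback to the receptors was read next. ERBB2 had 112656 with DMSO and 277859 with lapatinib, against 154570 with JQ1 and 277872 with both drugs, a difference of 0.85 (0.84 to 0.85) with JQ1 and 1.3 without, so the libraries with lapatinib had nearly the same value and the JQ1 library stood above DMSO. ERBB2 overlaps MIEN1 in part on the reference, so reads between them are uncertain. ERBB3, which encodes HER3, was raised, from 3272 with JQ1 to 7619 with both drugs, against 3623 with DMSO and 9897 with lapatinib (1.22, 1.17 to 1.27, with JQ1 and 1.45 without). EGFR differed by 0.39 (0.34 to 0.45). Of the 10 kept genes of the HER2 amplicon, GRB7, an adaptor of the receptor, was raised from 8956 with JQ1 to 34802 with both drugs (1.96, 1.93 to 1.99), and 0 were lowered. Of the amplicon, MED1 (-0.06, -0.08 to -0.03) and STARD3 (-0.08, -0.12 to -0.04) lay near 0. The ligand EGF, the only ERBB ligand kept of 11, had 311 with DMSO and 744 with lapatinib, against 176 with JQ1 and 287 with both drugs. Among negative regulators of ERBB, CBLB was raised (1.2, 1.03 to 1.39) and ERRFI1 lowered, from 2114 with JQ1 to 1038 with both drugs (-1.03, -1.12 to -0.94), a call that is lost with equal summed values.

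In the insulin and IGF pathway 4 of 8 were raised and 1 lowered. GAB2, an adaptor, went from 37.4 with JQ1 to 180.2 with both drugs (2.24, 1.85 to 2.71), and IGF1R from 416 with JQ1 to 980.2 with both drugs (1.23, 1.1 to 1.37). IGFBP5, an IGF-binding protein, had 17022 with DMSO and 28073 with lapatinib, against 577 with JQ1 and 2470.2 with both drugs, so lapatinib raised it (2.1, 1.99 to 2.2) from a low JQ1 value and it stayed far below DMSO. IGFBP2 was lowered (-1.63, -1.86 to -1.42). In the PI3K pathway, 2 of 19 were raised, PIK3IP1 and the mTOR inhibitor DEPTOR, from 119.8 with JQ1 to 631 with both drugs (2.39, 2.17 to 2.63), and 0 were lowered, with AKT1 at -0.88 (-0.94 to -0.83). Of 14 other receptor tyrosine kinases, 1 was raised and 3 lowered. DDR1, a collagen receptor, went from 3637 with JQ1 to 10579.5 with both drugs, against 6815 with DMSO and 14257 with lapatinib (1.54, 1.5 to 1.58), and FGFR3 from 1532 with JQ1 to 232 with both drugs (-2.72, -2.89 to -2.56). MST1R was lowered with JQ1 only (-1.2, -1.35 to -1.05, against 0.09 without it). MET had 1329 with DMSO and 2115 with lapatinib, against 379.5 with JQ1 and 715 with both drugs, a difference of 0.91 (0.77 to 1.06).

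Luminal transcription factors leaned upward, with 6 of 20 raised, 0 lowered and 18 above 0 (median 0.70, against 0.68 without JQ1). XBP1, which drives secretory capacity, went from 5913 with JQ1 to 24563 with both drugs, against 10526 with DMSO and 38637 with lapatinib (2.05, 2.02 to 2.09). TOX3 went from 46.4 with JQ1 to 202 with both drugs (2.1, 1.74 to 2.51) and GATA3, a defining luminal factor, from 1793 with JQ1 to 3719 with both drugs (1.05, 0.99 to 1.12). FOXA1, which opens chromatin for other luminal factors, had 5198 with DMSO and 7884 with lapatinib, against 6197 with JQ1 and 9779.5 with both drugs, a difference of 0.66 (0.62 to 0.7) and 0.6 without JQ1, under 2-fold in each. EHF, an epithelial ETS factor, had 414 with DMSO and 1364 with lapatinib, against 134 with JQ1 and 251 with both drugs. In it the JQ1 library stood lowest and the difference of 0.9 (0.66 to 1.16) did not bring it back to its DMSO value. KLF4 was raised, from 463 with JQ1 to 2679 with both drugs (2.53, 2.42 to 2.65), and KLF2 lowered from a high JQ1 value, from 1578 with JQ1 to 202 with both drugs, against 176 with DMSO and 47.5 with lapatinib (-2.96, -3.15 to -2.79). In the FOX family 4 of 14 were raised, FOXO3, FOXO4, FOXN3 and FOXP1 (1.82, 1.69 to 1.96), and FOXM1 was lowered.

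Lysosome and autophagy genes were raised in 9 of 34 and lowered in 0, with 29 above 0 and a median of 0.55, smaller than without JQ1 (0.74, with 10 raised). PSAP, the precursor of lysosomal saposins, went from 37487 with JQ1 to 98352 with both drugs, against 25798 with DMSO and 67097 with lapatinib (1.39, 1.38 to 1.41). CALCOCO1, an autophagy receptor, went from 129 with JQ1 to 1190.0 with both drugs (3.2, 3.0 to 3.43), and GABARAPL1, of the family that decorates autophagosomes, from 222 with JQ1 to 929 with both drugs (2.06, 1.89 to 2.24). Cathepsin D, CTSD, stood at 36297 with DMSO and 75079 with lapatinib, against 57525 with JQ1 and 104771 with both drugs, a difference of 0.86 (0.85 to 0.88). Of 12 BCL2 family genes 3 were raised, all BH3-only killers: BMF from 299.6 with JQ1 to 2434 with both drugs (3.02, 2.88 to 3.16), BIK (1.46, 1.14 to 1.82) and BCL2L11. BID, also BH3-only, differed by -0.96 (-1.3 to -0.66), and BOK (-0.97) and BAX (-0.51) were below 0 too, all under 2-fold. The list had a median of -0.03, with 6 genes above 0 and 6 below. BAK1 was lowered, from 1233 with JQ1 to 505 with both drugs (-1.29, -1.41 to -1.16), against -0.64 without JQ1. The survival genes MCL1 (-0.27, -0.31 to -0.24) and BCL2L1 (0.72, 0.66 to 0.78) were not called.

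Several clock genes moved. Of 12 kept, 5 were raised and 1 was lowered, with 10 of 12 higher in difference with JQ1 than without. BHLHE40 (DEC1), a repressor of clock genes, went from 609.5 with JQ1 to 3.44 with both drugs, against 282 with DMSO and 25.3 with lapatinib (-7.1, -9.1 to -6.24). DBP, an output gene that BHLHE40 is known to repress, went from 117 with JQ1 to 691 with both drugs, against 213 with DMSO and 347 with lapatinib (2.55, 2.33 to 2.79, with JQ1 and 0.7 without). NR1D2 (1.76, 1.69 to 1.83), CRY2 (2.01, 1.84 to 2.19), TEF (1.54, 1.26 to 1.86) and PER1 (1.16, 0.99 to 1.35, against -0.25 without JQ1) were raised, and CLOCK was at -0.23 (-0.35 to -0.12). All libraries were collected at 1 time, and cultures were not described as synchronised.

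Of 16 kept genes of the BET and P-TEFb list, 1 was raised and 1 lowered, with a median of 0.06. The list also holds genes that belong to neither group, SERPINI1 and ZMYND8 among them. HEXIM1, an inhibitor of the elongation kinase CDK9, had 2112 with DMSO and 2825 with lapatinib, against 3704 with JQ1 and 3277 with both drugs, a difference of -0.18 (-0.23 to -0.12). BRD2 had 4737 with DMSO and 5116 with lapatinib, against 11948 with JQ1 and 12153 with both drugs, a difference of 0.02 (-0.01 to 0.05), whereas SERPINI1 went from 113 with JQ1 to 223 with both drugs (0.97, 0.71 to 1.25) and ZMYND8 from 500 with JQ1 to 321 with both drugs (-0.64, -0.81 to -0.47). BRD3 was raised (1.16, 1.07 to 1.26, and 1.27 without JQ1) and ELL2, an elongation factor, lowered (-1.18, -1.37 to -0.99). Replication-dependent histone genes, whose mRNAs mostly lack a poly(A) tail, reached 100 for 20 of 67, all kept for their value in libraries with JQ1. Their median value was 61.9 with DMSO and 42.5 with lapatinib, against 424 with JQ1 and 192 with both drugs, and 6 of the 20 were lowered by adding lapatinib (median -0.50, against 0.28 without JQ1). H2BC12 had 1121 with DMSO and 1679 with lapatinib, against 5883 with JQ1 and 1518 with both drugs (-1.95, -2.02 to -1.89), and H4C14 had 315 with DMSO and 302 with lapatinib, against 5994 with JQ1 and 3720.0 with both drugs (-0.69, -0.74 to -0.64). Histone genes are near-identical copies and their single values are uncertain.

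Among secretory products, MUC1, a mucin, went from 58.5 with JQ1 to 909 with both drugs, against 444 with DMSO and 4645 with lapatinib (3.93, 3.65 to 4.28), and its JQ1 value stood below that with DMSO. The calcium-binding S100A8 (-3.79, -4.13 to -3.5) and S100A9, from 4379.5 with JQ1 to 469.8 with both drugs, against 2107 with DMSO and 663 with lapatinib (-3.22, -3.34 to -3.11), were lowered. Of 17 keratin and adhesion genes, 2 of the junction genes were raised, CLDN3 (1.42, 1.34 to 1.5) and OCLN (1.23, 1.14 to 1.31), which shares reads with a pseudogene, and KRT80 was lowered (-1.26, -1.32 to -1.2). The luminal keratin KRT8 had 59145 with DMSO and 56640.4 with lapatinib, against 211202 with JQ1 and 122390 with both drugs, a difference of -0.79 (-0.8 to -0.78) with JQ1 and -0.06 without, and in KRT18 and KRT19 too the JQ1 library stood highest and the combined library next. ITGB4, a hemidesmosome integrin, had 2013 with DMSO and 1812 with lapatinib, against 5811 with JQ1 and 2000.3 with both drugs (-1.54, -1.6 to -1.48), and LAMB2 was raised (1.75, 1.69 to 1.82). In the remaining lists few genes were called. Of 9 interferon-stimulated genes 2 were raised, IFI6 (1.34, 1.01 to 1.71) and IFITM3 (1.02, 0.78 to 1.27). Of 9 genes of MHC class I presentation ERAP1 was raised (1.02, 0.81 to 1.25). The calls of IFITM3 and ERAP1 are lost with a pseudocount of 10. Of 7 Notch genes JAG1 was raised (1.35, 1.0 to 1.73) and HES4 (-1.89, -2.23 to -1.59) and JAG2 (-1.12, -1.42 to -0.83) lowered. Of 7 mesenchymal genes, CCN2, a target of YAP, was lowered, from 719 with JQ1 to 232 with both drugs (-1.63, -1.81 to -1.46).

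The 15 largest rises and the 15 largest falls include several outside these lists. FAM111B, a protease of replicating cells, went from 2005 with JQ1 to 15.1 with both drugs (-6.96, -7.73 to -6.45), and KIF4A, a mitotic kinesin with a near-identical retrocopy, from 1645 with JQ1 to 8.25 with both drugs (-7.47, -8.59 to -6.83). CKAP2L had 923 reads and 3 (-7.6, -10.45 to -6.62) and HJURP, the chaperone of the centromeric histone, 901 and 6. On the rising side, CREBRF, a regulator of the unfolded protein response, went from 53.5 with JQ1 to 916 with both drugs (4.07, 3.78 to 4.44), and ADM2, a peptide hormone that ATF4 is known to induce, from 53.5 with JQ1 to 642 with both drugs (3.56, 3.26 to 3.93). YPEL2 (3.72, 3.25 to 4.36), STON1 (3.73, 3.24 to 4.45), SEMA6C (3.44, 2.92 to 4.19) and F8 (3.67, 3.15 to 4.47) were also raised. F8 had 22 reads with JQ1 and SEMA6C 24, so their differences have wide intervals. ZNHIT2 was listed at 0 with JQ1 and at 216 with both drugs, and its 0 may be a failed estimate.

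A smaller set changed with JQ1 present where lapatinib alone did little. Of the 3068 genes within 0.25 of 0 without JQ1, 6 were raised and 42 lowered by adding lapatinib to JQ1. These are far smaller shares than over all 9823 genes, where 7.05% were raised and 10.6% lowered. Beside PHGDH, the most raised were ARHGAP24 (514 with DMSO and 501 with lapatinib, against 279.6 with JQ1 and 666 with both drugs), MBOAT1 (1.21, 1.03 to 1.4), XPOT, a tRNA export receptor (1.1, 1.03 to 1.16), and ZSCAN31 (1.06, 0.86 to 1.26). In PHGDH, ARHGAP24, MBOAT1, XPOT and ZSCAN31 the JQ1 library stood lowest of the 4. The most lowered were DNAH3 (6.44 with DMSO and 6.13 with lapatinib, against 150.1 with JQ1 and 2.75 with both drugs), NUDT19 (485 with DMSO and 541 with lapatinib, against 2827 with JQ1 and 457 with both drugs), KCNN4 (907 with DMSO and 918 with lapatinib, against 159 with JQ1 and 46.1 with both drugs), PTAFR (-1.71, -2.16 to -1.31) and the histone H2BC4 (-1.63, -1.83 to -1.45). DNAH3, an axonemal dynein, and NUDT19, a coenzyme A diphosphatase, were high in the JQ1 library only, whereas KCNN4, a potassium channel, and PTAFR were lower still with both drugs than with JQ1.

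In BT474m1 the same addition, in libraries that share none with SKBR-3, raised 487 of the 9823 genes (4.96%) and lowered 544 (5.54%). Of the genes lowered in SKBR-3, 400 were lowered in BT474m1 too, 38.3% of the SKBR-3 set and 73.5% of the other. Of those raised, 188 were raised in both (27.1% and 38.6%), while 8 genes raised and 20 lowered in SKBR-3 went past 2-fold the opposite way in BT474m1. The Pearson r across genes was 0.71 and the Spearman rho 0.55. In the cell cycle lists the directions were shared, and all 43 mitosis genes were lowered in BT474m1, with a median of -3.69 against -5.65 in SKBR-3. Counted over all genes, deep falls were not more frequent with JQ1 in BT474m1. There lapatinib lowered 637 genes, 116 of them at least 16-fold, without JQ1, against 544 and 51 with it. Single genes went either way: MKI67 differed there by -5.62 without JQ1 and -4.53 with it, and CCND1 by -0.95 without and -2.34 with it. FOXO targets had a median of 0.93, with 7 of 15 raised, and CALCOCO1 rose in BT474m1 by 3.17. The glycolysis and ATF4 lists were apart, with a median for glycolysis of -0.38 and 2 of 22 lowered, and the ATF4 list at -0.24. Fatty acid synthesis had a median of -0.75 in BT474m1, with 4 of 13 lowered as in SKBR-3, and sterol synthesis one of -1.0, with 11 of 22 lowered against 6. NUPR1 was raised there (1.49), while SLC7A11 (-0.65), CHAC1 (-0.26) and ASNS (-0.41) were not. FASN (-1.62, against -0.94 without JQ1) and SCD (-2.5, against -2.97 without JQ1) were lowered in BT474m1 as well. With 1 library a treatment, the difference between the lines could not be tested.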

How the data were processed

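Poly(A) RNA of cultured SKBR-3 and BT474m1 cells was sequenced, 1 library a treatment, and groups were taken from the titles and treatments in the labels. The labels give 48 h of treatment, which was followed, while the study's methods give a shorter time for its cell lines in general. Each deposited value is a signal for 1 gene: the authors estimated read counts with RSEM and scaled them so that the upper quartile of genes above 0 is 1000. The submitters' processing notes name hg19, Picard 1.88, SAMtools 1.2, R 3.2.2 and DESeq2 1.12.3, whereas the study's methods name another build and other tools, so the build and annotation of these tables are uncertain. Whether the counting used strand is not given in the sources used here.

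Values were analysed with Python 3.11.15, numpy 2.4.6, pandas 2.3.3 and scipy 1.17.1, and drawn with matplotlib 3.10.9. Genes at 100 or more in the JQ1 or the combined library were kept. Differences are of log2(value + 1), called at 2-fold. The value of 1 read was recovered from the steps between values, and 83.8% to 85.2% of the values above 0 were whole reads within 0.02 read. Exact Clopper-Pearson intervals (95%) use these reads. Scripts were tested on simulated data.

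The comparison and the 37 gene lists (with 5 lists of markers) were chosen with earlier results of these data known, so that no list is independent evidence. Named genes were the 15 that rose and 15 that fell most, list members at 100 or more, the 5 highest by the smaller change in each class shared or opposed with lapatinib against DMSO, ERBB2, ERBB3, FOXA1, MYC and HEXIM1, and the 5 raised and 5 lowered whose change without JQ1 was under 0.25. Other names were chosen after their values were seen: HBP1, EIF3CL, OCLN as a partner of OCLNP1, and FOXO3B. Values of some list members are not reported here, though the counts and medians of their lists include them. Symbols are current RefSeq ones, matched by Entrez identifier for 20372 of 20531 genes. Promoters (250 bases before to 50 after the start) are those of RefSeq on GRCh38.p14, matched for 8059 of the 9823 kept genes (82%). Alternatives were equal summed values or the median of ratios as the scale, a pseudocount of 10, filters at 10 and 1000, a counting interval that excludes no change, means in place of list medians and a 4-fold limit for promoters, and, chosen after seeing the data, other filters for the changes shared with lapatinib alone.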

Additional observations from a re-analysis of the deposited data

Results flagged for a closer look

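Among the genes that the rule for named genes chose, those past 2-fold in opposite directions in a pair of settings were taken for a closer look. The other genes past 2-fold in opposite directions in the 2 lines are not listed. With 1 library a group, none of these differences was tested.

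OCLNP1, a pseudogene of the tight junction gene OCLN, stood at 20.3 with DMSO and 135 with lapatinib in SKBR-3, a log2 difference of 2.68. It stood at 138 with JQ1 and was listed at 0 with both drugs, and the counting interval of its difference ends at -5.76. The sum of OCLNP1 and OCLN was 1193 with DMSO and 1993 with lapatinib, against 1211 with JQ1 and 2510.1 with both drugs, so that the sum was higher with lapatinib in both settings.

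ZNHIT2 was at 104 with DMSO and 14.1 with lapatinib, a difference of -2.80, and was listed at 0 with JQ1 and at 216 with both drugs. It was also listed at 0 in BT474m1 with DMSO, where lapatinib gave 415. A 0 beside values over 100 in other libraries may be a failed estimate, and no fold is given for it.

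EIF3C, a subunit of the translation factor eIF3, was at 295 with DMSO and 120 with lapatinib, a difference of -1.28, and at 390.3 with JQ1 and 1986 with both drugs, a difference of 2.34. Its near-identical copy EIF3CL was at 15762 with JQ1 and 15489 with both drugs. The sum of the copies differed by 0.11 with JQ1 and by -0.09 without it.

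Between the lines, the immediate early gene EGR1 differed by 2.31 in BT474m1 when lapatinib was added to JQ1, against -1.23 in SKBR-3. LAMA3, a laminin chain, differed by -1.47 in SKBR-3, where it went from 141 to 50.2, and by 1.42 (0.49 to 2.82) in BT474m1, where it stood at only 4.83 and 14.6 and the interval includes changes under 2-fold.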

How the results depend on the processing

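Under the alternatives 23 of 663 recomputed list medians and 4 of 828 single-gene differences changed sign, the latter from at most 0.06 in size. The median over all genes went from -0.01 to 0.04 with equal summed values. The counting interval left the counts of genes raised and lowered by adding lapatinib to JQ1 as they were, at 693 and 1044. The filter on low values moved the counts most. With a value of 10 or more, 1105 genes rose and 1490 fell past 2-fold on adding lapatinib to JQ1. For BT474m1 these counts were 1038 and 750, and for lapatinib against DMSO 1190 and 1080, so in both of these more rose than fell, whereas at 100 fewer did. With a value of 1000 or more, it raised 295 and lowered 343 with JQ1, raised 290 and lowered 265 against DMSO, and raised 118 and lowered 191 in BT474m1. With equal summed values 797 genes were raised and 966 lowered, still with more lowered than raised, but in BT474m1 536 were raised and 520 lowered. Filters chosen after seeing the data left 57.5% to 60.4% of the shared rises and 67.3% to 77.3% of the shared falls larger with JQ1. A pseudocount of 10 brought the mitosis median to -5.05. The ERBB ligand list holds only EGF at the filter used, and its value was 0.68 with a pseudocount of 10, 0.70 with the median of ratios and 0.76 with equal summed values, and -1.07 over the genes kept at 10 or more. At 4-fold in place of 2-fold, lowered promoters held the E2F motif in 8.48%, the CHR in 34.3%, CCAAT in 56.9% and the E-box in 8.83%, and raised promoters held the FOX motif in 11.5% and the E2F motif in 0%. Of the list calls, ERRFI1, RPA3 and PGAM1 are lost with equal summed values (-0.97, -0.96 and -0.99), and RPA3, IFITM3 and ERAP1 with a pseudocount of 10. Of the recomputed values, 13 of 663 list medians, 87 of 828 single-gene differences, 19 of 368 list shares and 6 of 10 promoter shares moved beyond the interval of the reported value.

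No paired analysis was run, as each group holds 1 library and the lines were described apart. With 1 library a group, leaving out a replicate was not possible. Depth limits the deepest falls: SPC25 had 0 reads with both drugs, UHRF1 1 and NDC80 2, so their differences have wide or open intervals. The counting intervals do not cover the spread between cultures, which these data cannot show.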
